A study of Homo sapiens with 6 samples.

Results

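The 10 genes described here are the Notch receptors NOTCH1, NOTCH2, NOTCH3 and NOTCH4, the ligands JAG1, JAG2 and DLL1, the nuclear partner RBPJ and the targets HES1 and HEY1. They were found by gene symbol, 10 rows of 54261 in the count table. RNA was compared between the 7R line, which the labels call sunitinib-resistant, and its parent 786-O, an established line from a human clear-cell kidney cancer that lacks functional VHL. Sunitinib is an inhibitor of receptor tyrosine kinases, among them the VEGF and PDGF receptors. Each line was sequenced as 3 libraries, called resistant and control below. The labels give the same medium for both lines and do not say whether sunitinib was present at harvest or whether 7R is a single clone. Nor do they say that the 3 libraries stand for 3 cultures, so the p-values rest on a spread between libraries that may be technical. In such bulk RNA, fewer cells that express a gene and less of its RNA per cell cannot be told apart.

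Notch signalling works by contact between cells. A Jagged or Delta-like ligand on one cell binds a Notch receptor on its neighbour, the ADAM metalloproteases and then gamma-secretase cut the receptor, and the freed intracellular domain enters the nucleus. There it binds RBPJ, a DNA-binding protein that represses its targets with corepressors when no Notch is bound and activates them when Notch and Mastermind proteins join it. HES and HEY genes, which encode basic helix-loop-helix repressors, are the best known targets. In the kidney the pathway patterns the nephron during development.

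Total counts ranged from 37919629 to 38131634 in resistant libraries and from 48264905 to 52221491 in control libraries, and levels are given as CPM, counts per 1000000 of the TMM-scaled library total. Where a library has a count of 0, up to 3 counts (0.0662 to 0.0706 CPM) remain possible from counting error. Of 9 markers of renal lineage or clear-cell carcinoma, all averaged at least 1 CPM in both lines, with PAX8 at 407 CPM in resistant and 544 CPM in control libraries. The extraction text names a brain region. Of 7 glial markers, only MBP averaged at least 1 CPM in either line, MOG was at 0 counts in all libraries, and the list summed to 37.9 to 41.6 CPM in resistant and 22.5 to 27.4 CPM in control libraries. The 8 neuronal markers summed to 77.2 to 96.9 CPM in resistant and 126 to 139 CPM in control libraries, mostly NEFL, with STMN2 at 0 in all. Endothelial markers summed to 0.800 to 1.12 CPM in resistant and 0.0908 to 0.852 CPM in control libraries. Summed immune markers reached 8.15 to 9.81 CPM in resistant and 39.6 to 46.4 CPM in control libraries, nearly all CD68, with PTPRC and CD3E at 0. Fibroblast markers summed to 19.4 to 42.6 CPM in resistant and 5.22 to 6.59 CPM in control libraries, mostly LUM in resistant and COL1A1 in control libraries. The part of such markers in the results below was not tested.

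Among the Notch genes, RBPJ rose in the resistant line while NOTCH1, NOTCH2 and JAG2 fell. JAG1, HES1, HEY1 and NOTCH3 did not pass the test, and NOTCH4 and DLL1 were too low to test. Of the 8 genes that passed the filter on low counts, 1 rose, where 39.3% of all 16642 genes tested rose, and 3 fell, where 36.9% of all genes fell. Calls were made at an adjusted p under 0.05 in edgeR's quasi-likelihood test with Benjamini-Hochberg adjustment over all genes. In 6 of the 8, resistant and control libraries had separate ranges, as had 80.3% of all genes tested. The 8 genes had a median log2 fold change of -0.39, against 0.05 over all genes. Calls were thus no more frequent among these genes than in the table as a whole, where 76.2% of genes were called.

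Fold change across the table followed the GC content of the transcripts, with a Spearman's rho of -0.68 across 14263 tested genes with a GC value, which are not independent replicates. Notch genes spanned much of that range, from 42.8% GC for RBPJ to 64.2% for JAG2. For this reason each fold change is also given with each library's own trend over GC content and transcript length taken out, called GC-adjusted below. After this adjustment 66.9% of 14263 genes were called, 34.2% higher and 32.6% lower in the resistant line. Of the 8 Notch genes, 2 were then higher (RBPJ and JAG1) and 3 lower (NOTCH1, NOTCH2 and JAG2), with a median of 0.05 against 0.02 over all genes. How much of each difference comes with GC content for technical reasons was not tested.

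**Figure D1:**
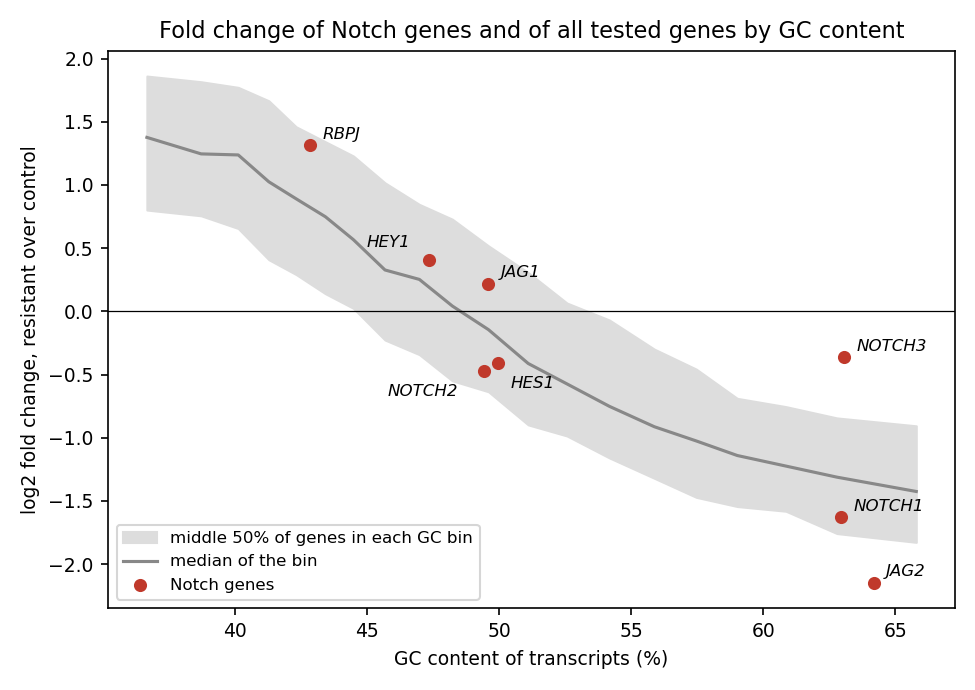
Log2 fold change (resistant over control, y axis) against the GC content of transcripts in percent (x axis). Red points are the 8 tested Notch genes; the grey line and band are the median and the middle 50% of all tested genes in 20 bins of GC content. NOTCH1 and JAG2 lie at the GC-rich, lower end, RBPJ at the GC-poor, higher end.

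Among receptors, NOTCH2 was the most abundant. Resistant libraries held 579, 516 and 530 CPM of NOTCH2, against 748, 716 and 795 CPM in control libraries. Every resistant library was lower than every control library. For NOTCH2, which lies on chromosome 1, the log2 fold change was -0.48 ± 0.10 (SE; adjusted p = 6.92e-04), and -0.45 ± 0.07 after GC adjustment (adjusted p = 1.73e-04). Scaled by library size alone, which moved the median log2 fold change of all genes from 0.05 to 0.39, NOTCH2 no longer passed (-0.13, adjusted p = 0.240).

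NOTCH2 has near-identical partial copies, the NOTCH2NL genes, which the table gives as a single row. NOTCH2NL held 630, 735 and 855 counts in resistant libraries and 217, 193 and 234 in control libraries. The row rose by 1.83 ± 0.16 on the log2 scale (adjusted p = 8.61e-07), and by 1.99 ± 0.15 after GC adjustment (adjusted p = 6.13e-07). In counts it amounted to 3.21% ± 0.646 of NOTCH2 in resistant and 0.643% ± 0.0198 in control libraries (SD, n = 3 each). Reads of these copies may be split between the rows. With NOTCH2NL added to NOTCH2 the log2 fold change was -0.44 ± 0.10 (adjusted p = 0.00116).

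NOTCH1, on chromosome 9, is the receptor first linked to human leukaemia. It reached 80.2, 67.0 and 64.9 CPM in resistant libraries, against 214, 210.3 and 230.2 CPM in control libraries. Each resistant value was thus far under the lowest control value, 70.7 ± 8.27 CPM on average against 218 ± 10.6 CPM in control libraries (SD, n = 3 each). The log2 fold change was -1.63 ± 0.11 (adjusted p = 2.17e-07). The adjustment moved it to -0.50 ± 0.07 (adjusted p = 8.25e-05), and adjusting for GC content alone to -0.24 (adjusted p = 0.0113). NOTCH1 transcripts hold 62.9% GC, and the 713 tested genes of the same GC bin had a median log2 fold change of -1.31, with the middle 50% between -1.76 and -0.84.

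The proportion between these 2 receptors was without overlap as well, and it carries the larger fall of NOTCH1 given above. NOTCH1 counts were 13.9%, 12.99% and 12.2% of NOTCH2 counts in resistant libraries, against 28.6%, 29.4% and 28.9% in control libraries. A ratio within a library does not depend on the scaling between libraries, but it does carry any effect of GC content, in which the 2 genes differ (62.9% and 49.4%). The exact permutation test over libraries gave p = 0.1 (two-sided), the smallest that 3 against 3 libraries allow. Of all counts of the 4 receptors, NOTCH2 took 87.8% to 89.1% in resistant and 77.3% to 77.8% in control libraries.

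NOTCH3, on chromosome 19, and NOTCH4, on chromosome 6, were at the edge of detection. NOTCH3, which in blood vessels marks smooth muscle and pericytes, had 11, 7 and 3 counts in resistant libraries and 1, 12 and 15 in control libraries. These values overlap, and the ratio of the summed counts, 21 in resistant against 28 in control libraries, was 0.775 on the TMM scale with an exact 95% interval of 0.418 to 1.41 for counting error. Its log2 fold change of -0.36 ± 0.79 did not pass (adjusted p = 0.688) and was positive after GC adjustment (0.79 ± 0.78, adjusted p = 0.388). NOTCH4, the receptor best known from endothelium, had 0 counts in each library, which allows up to 0.0233 CPM over the resistant and 0.0226 CPM over the control libraries. These limits cover counting error alone. In the GENCODE annotation NOTCH4 also shares 98 exonic bases on the same strand with GPSM3, which has its own row.

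**Figure D2:**
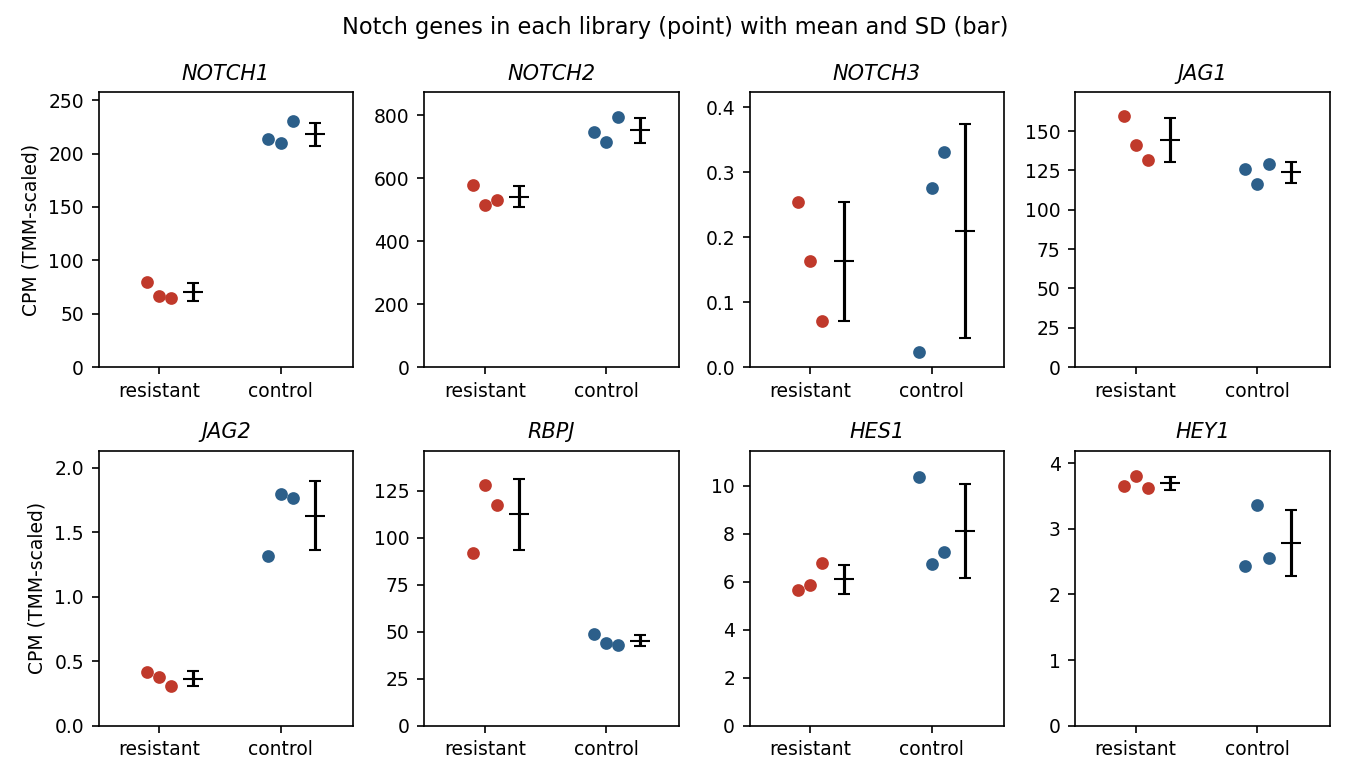
Level of 8 Notch genes in each library (points, CPM on a linear axis from 0), with the mean and SD of 3 libraries beside them, resistant at left and control at right in each panel. The groups do not overlap for NOTCH1, NOTCH2, JAG1, JAG2, RBPJ and HEY1; they overlap for NOTCH3 and HES1.

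Of the ligands, JAG1 accounted for nearly all counts. This Jagged ligand, on chromosome 20, is the one whose loss causes Alagille syndrome, in which the kidney can be affected. It had 159.8, 141 and 132 CPM in resistant libraries and 126, 117 and 129 CPM in control libraries. The resistant values were all higher, by a narrow margin. The log2 fold change of 0.22 ± 0.11 missed the threshold (adjusted p = 0.0784). It passed after GC adjustment (0.23 ± 0.08, adjusted p = 0.0255) but not when resistant replicate 1, the highest library, was also left out (0.15, adjusted p = 0.0614), and it passed when libraries were scaled by size alone (0.56, adjusted p = 5.89e-04).

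JAG2, the second Jagged ligand, on chromosome 14, was low in both lines and fell. The resistant libraries held 18, 16 and 13 counts, or 0.416, 0.374 and 0.306 CPM, against 58, 78 and 80 counts, or 1.32, 1.80 and 1.77 CPM, in control libraries. No resistant library came near the control range. The log2 fold change was -2.15 ± 0.34 (adjusted p = 1.03e-04). After GC adjustment it was -0.83 ± 0.33 (adjusted p = 0.0441), and the call was lost when GC content alone was adjusted for (-0.70, adjusted p = 0.0822) or when resistant replicate 1 was left out of the GC-adjusted comparison (-0.84, adjusted p = 0.0791). In the GENCODE annotation a non-coding transcript on the same strand shares 469 exonic bases with JAG2, so some of these few reads may belong to it.

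JAG2 counts equalled 0.261%, 0.264% and 0.232% of JAG1 counts in resistant libraries, against 1.04%, 1.54% and 1.37% in control libraries (exact permutation p = 0.1, two-sided). JAG1 was thus by far the more abundant Jagged ligand in both lines. The ratio carries the fall of JAG2 itself, and any effect of GC content, in which the 2 genes differ (64.2% for JAG2 and 49.6% for JAG1). DLL1, a Delta-like ligand on chromosome 6, had 0 counts in resistant libraries and 1 in control libraries. Of 5 other ligands, DLL3, DLL4, DLK2 and DNER had too few counts to test. DLK1, an atypical ligand without the domain that activates the receptor, averaged 0.381 ± 0.109 CPM in resistant and 0.271 ± 0.237 CPM in control libraries and did not pass (adjusted p = 0.583), while its GC-adjusted log2 fold change of 1.87 did (adjusted p = 0.0474), though not with GC content alone adjusted (1.78, adjusted p = 0.0573).

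RBPJ, on chromosome 4, was the Notch gene that rose. It reached 91.6, 128 and 117 CPM in resistant libraries, against 48.6, 44.0 and 42.8 CPM in control libraries. The lowest resistant library, replicate 1, still stood well above the highest control library. The mean was 112 ± 18.7 CPM in resistant and 45.1 ± 3.04 CPM in control libraries (SD, n = 3 each), a log2 fold change of 1.31 ± 0.13 (adjusted p = 2.54e-06). After GC adjustment it was 0.70 ± 0.09 (adjusted p = 2.53e-05), and it passed in each of the other settings tried, between 0.54 with GC content alone adjusted and 1.65 scaled by library size alone. RBPJ transcripts hold 42.8% GC, and the 712 tested genes of that GC bin had a median log2 fold change of 0.89, with the middle 50% between 0.29 and 1.46. The processed pseudogenes RBPJP2, RBPJP5, RBPJP6 and RBPJP7 have rows in the table and 0 counts in each library, as does the paralogue RBPJL.

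**Figure D3:**
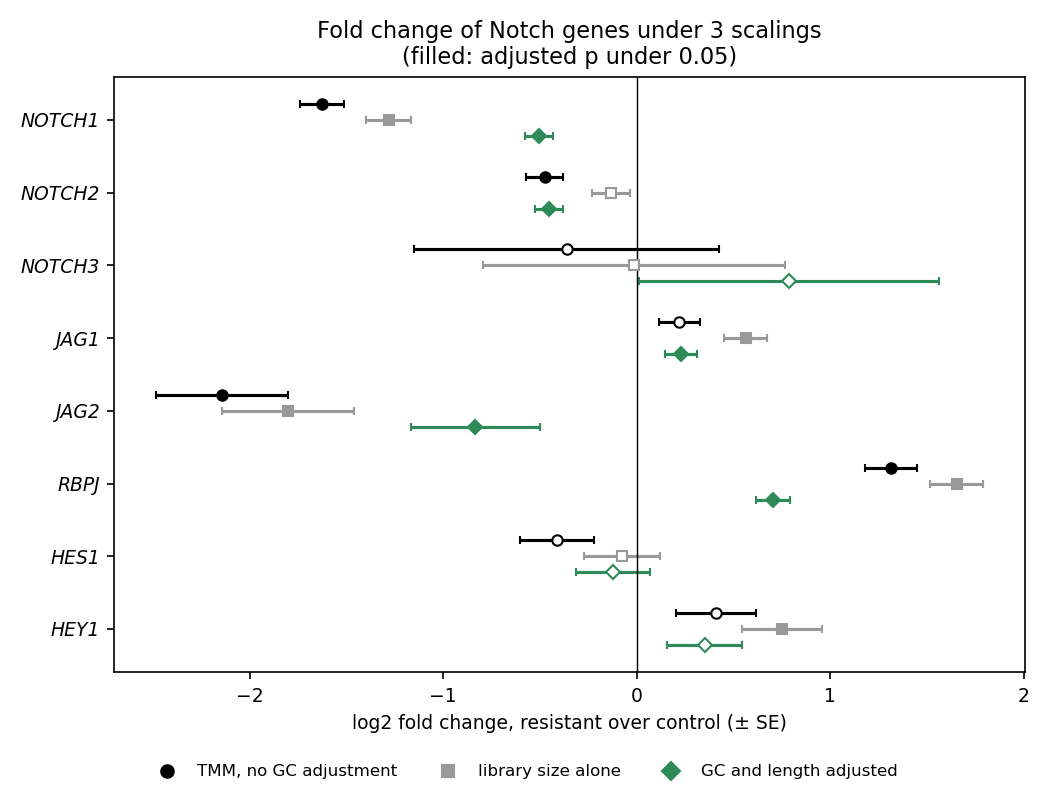
Log2 fold change (resistant over control, x axis) with its SE for 8 Notch genes (y axis) under TMM scaling, under scaling by library size alone, and after adjustment for GC content and length. Filled symbols passed an adjusted p of 0.05; NOTCH1, JAG2 and RBPJ passed under all 3, with smaller folds after adjustment.

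HES1 is the textbook direct target of the complex of Notch and RBPJ, and HES4 had the smallest p among the other HES and HEY genes. Their promoters are shown because RBPJ rose while HES1 did not pass and HES4 fell. After GC adjustment the fall of HES4 no longer passed (log2 fold change -0.17, adjusted p = 0.223). The core letters that RBPJ recognises, TGGGAA, were searched on both strands of the RefSeq promoter windows (250 bases before to 50 after the start, build GRCh38.p14), which were found for 8 of the 10 genes. Given here are the 250 bases upstream of the start, 5′ to 3′ on the strand of the gene, with matches in capitals.
HES1 (chr3:194135898-194136147, plus strand): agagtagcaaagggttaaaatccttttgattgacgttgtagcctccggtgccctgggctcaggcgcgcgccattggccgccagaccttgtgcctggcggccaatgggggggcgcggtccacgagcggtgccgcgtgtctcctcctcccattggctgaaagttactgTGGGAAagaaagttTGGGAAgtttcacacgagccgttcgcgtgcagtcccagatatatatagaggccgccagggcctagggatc
HES4 (chr1:1000098-1000347, minus strand): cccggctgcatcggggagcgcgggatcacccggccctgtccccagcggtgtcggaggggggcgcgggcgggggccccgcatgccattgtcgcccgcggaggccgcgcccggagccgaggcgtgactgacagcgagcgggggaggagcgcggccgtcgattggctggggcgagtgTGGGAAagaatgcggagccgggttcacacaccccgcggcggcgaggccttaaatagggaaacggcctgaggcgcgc

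HES1 held 2 matches, which begin 84 and 70 bases before the start, and HES4 held 1, which begins 76 bases before it. Of all 35116 promoter windows, 24.0% held at least 1 match over the 300 bases and 3.80% held 2 or more. With the longer letters GTGGGAA, which contain the shorter ones, HES1 and HES4 kept 1 match each, against 6.25% of all windows with at least 1. The other Notch gene with a match was RBPJ, in 1 of its 5 windows, which held 2. Both were also matches of GTGGGAA, while 0.248% of all windows held 2 or more of these. RBPJ had 5 windows, so that share per window is not directly comparable. NOTCH1, NOTCH2, NOTCH3, NOTCH4, JAG1 and JAG2 held none. The letters CACNAG, the N-box bound by HES proteins, were found on either strand in at least 1 window of 6 of the 8 genes. Of all windows, 38.0% held a match. That share is per window, while RBPJ had 5 windows and counted once, so the 2 figures are not directly comparable. HES1 held 4 matches, and NOTCH1 held 2 that overlap each other on opposite strands. RBPJ held 2 in 1 of its 5 windows, and NOTCH2, NOTCH3 and NOTCH4 held 1 each, while 8.95% of all windows held 2 or more. JAG1, JAG2 and HES4 held none. A match in letters is not evidence of binding.

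HES1, on chromosome 3, represses many genes and also its own promoter. Its level was 5.65, 5.86 and 6.78 CPM in resistant libraries, against 10.4, 6.73 and 7.24 CPM in control libraries. The groups overlap, since resistant replicate 3 was just above control replicate 2, and control replicate 1 stood apart at the top. The log2 fold change of -0.41 ± 0.19 did not pass (adjusted p = 0.0660). It passed without control replicate 2 (-0.58, adjusted p = 0.0229) or without control replicate 3 (-0.52, adjusted p = 0.0453), and was -0.25 without control replicate 1 (adjusted p = 0.215) and -0.12 ± 0.19 after GC adjustment (adjusted p = 0.592).

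HEY1, on chromosome 8, encodes a related repressor that is best known from vessels and heart. Resistant libraries held 3.66, 3.81 and 3.63 CPM and control libraries 2.43, 3.36 and 2.56 CPM. All resistant values were higher, the nearest control library being replicate 2. The log2 fold change of 0.41 ± 0.21 did not pass (adjusted p = 0.0884), nor after GC adjustment (0.35 ± 0.19, adjusted p = 0.128), but scaled by library size alone it did (0.75, adjusted p = 0.00529).

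HES1 counts were 6.16%, 4.58% and 5.79% of RBPJ counts in resistant libraries and 21.4%, 15.3% and 16.9% in control libraries. HES1 counts averaged 165% ± 18.9 of HEY1 counts in resistant and 303% ± 115 in control libraries (SD, n = 3 each). Neither ratio overlapped between the lines. The ratio to RBPJ carries the rise of RBPJ itself and says nothing more about HES1, whose own values overlapped. The ratio to HEY1 gave an exact permutation p of 0.1 (two-sided).

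**Figure D4:**
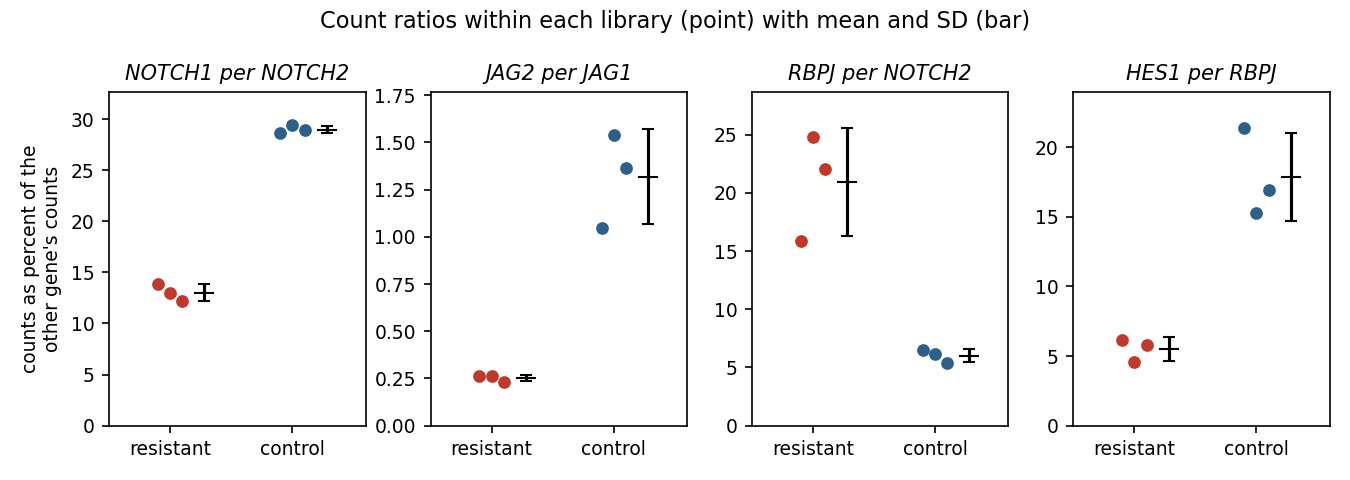
Counts of one gene as a percent of the counts of another within each library (points, linear axis from 0), with the mean and SD of 3 libraries, resistant at left and control at right. NOTCH1 per NOTCH2, JAG2 per JAG1 and HES1 per RBPJ were lower, and RBPJ per NOTCH2 higher, in every resistant library. Both ratios with RBPJ carry its own rise. NOTCH1 per NOTCH2 and JAG2 per JAG1 carry the falls of NOTCH1 and JAG2.

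Levels between genes were compared per 1000 bases of the longest coding transcript in GENCODE. On this scale NOTCH2 led in both lines, at 47.6 ± 2.90 in resistant and 66.1 ± 3.50 CPM per 1000 bases in control libraries (SD, n = 3 each). Resistant libraries followed with JAG1 (24.3 ± 2.38), RBPJ (18.7 ± 3.12), NOTCH1 (7.60 ± 0.889), HES1 (3.86 ± 0.382) and HEY1 (1.61 ± 0.0424). In control libraries the order was NOTCH1 (23.4 ± 1.14), JAG1 (20.9 ± 1.11), RBPJ (7.54 ± 0.508), HES1 (5.14 ± 1.25) and HEY1 (1.21 ± 0.220). The library values of neighbours in either order did not overlap. JAG2 stood at 0.0626 in resistant and 0.279 in control libraries, and NOTCH3, NOTCH4 and DLL1 were at or near the detection limit and are not ordered. The place of RBPJ depends on the length used: with the median length of its transcripts it reached 65.1 in resistant and 26.2 CPM per 1000 bases in control libraries, above JAG1 and NOTCH1 in each.

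Beyond these 10 genes, 91 other symbols of the pathway were listed, of which 90 have rows and 77 passed the filter. Of the 77, 28 rose and 38 fell, where 39.3% of all genes tested rose and 36.9% fell, and the median log2 fold change was -0.30 against 0.05 over all genes. After GC adjustment 37 were higher and 23 lower, where 34.2% of all genes were higher and 32.6% lower, with a median of 0.17 against 0.02. Scaled by library size alone, 35 were higher and 31 lower, so the side with more calls turned with the scaling as well as with the GC adjustment. Separate ranges in the 2 lines were seen for 70 of the 77, against 80.3% of all genes.

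**Figure D5:**
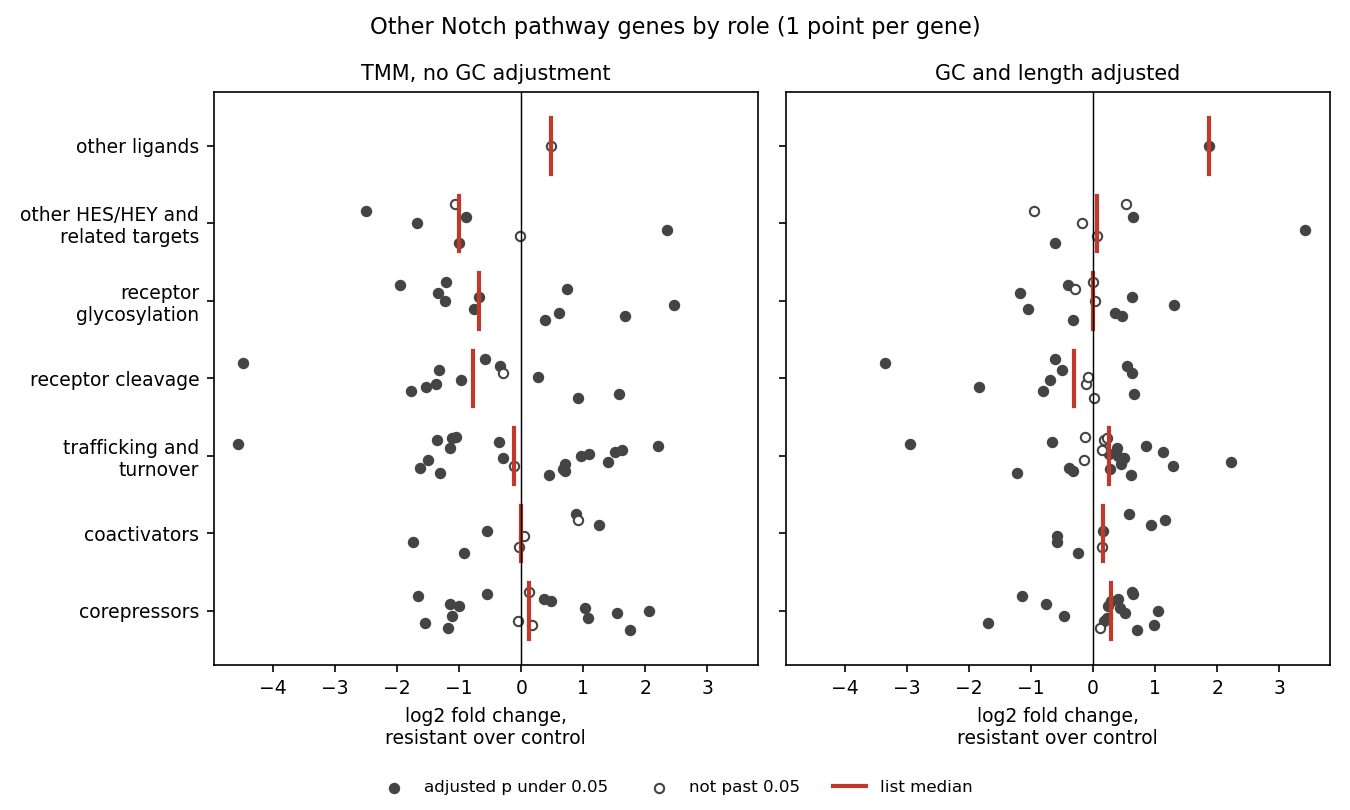
Log2 fold change (resistant over control, x axis) of 77 other Notch pathway genes by role (y axis), before (left) and after (right) adjustment for GC content and length. Filled points passed an adjusted p of 0.05 and red lines are list medians. The median of receptor cleavage genes is negative in both panels (-0.78 and -0.31). That of receptor glycosylation genes goes from -0.69 to -0.0014 after adjustment, with 4 genes then higher and 4 lower.

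Of 7 other HES and HEY genes and related targets tested, 4 fell and 1 rose, beside 36.9% and 39.3% of all genes. After GC adjustment 1 was lower and 2 were higher, beside 32.6% and 34.2%. HES4 had 5.44, 3.83 and 5.49 CPM in resistant libraries and 14.7, 15.6 and 16.8 CPM in control libraries, with no overlap. Its log2 fold change of -1.67 ± 0.17 (adjusted p = 2.39e-06) became -0.17 after GC adjustment and no longer passed (adjusted p = 0.223), and its transcripts hold 74.0% GC. HES7, an oscillating gene of the embryonic segmentation clock, had 0.226 ± 0.203 CPM in resistant and 1.29 ± 0.620 CPM in control libraries (log2 fold change -2.50, adjusted p = 0.00315; -0.96 and adjusted p = 0.184 after GC adjustment).

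HES6, which opposes HES1 in neural precursors, turned the other way, from -0.89 (adjusted p = 0.00383) to 0.65 after GC adjustment (adjusted p = 0.0323). BHLHE40, a related repressor of the circadian clock, fell to 121 ± 10.6 CPM in resistant libraries, against 242 ± 5.43 CPM in control libraries. It passed before (adjusted p = 2.56e-06) and after GC adjustment (log2 fold change -0.61, adjusted p = 1.14e-05).

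Of 11 tested enzymes that glycosylate the receptors, 5 rose and 6 fell, beside 39.3% and 36.9% of all genes. After GC adjustment 4 were higher and 4 lower, near the 34.2% and 32.6% of all genes. POFUT1, which adds the O-fucose that receptors need to bind ligands, fell to 159.5 ± 17.4 CPM in resistant libraries, against 403 ± 26.1 CPM in control libraries (log2 fold change -1.34, adjusted p = 6.12e-07; -1.17 after GC adjustment). LFNG, the Fringe that extends this fucose and shifts receptors from Jagged to Delta ligands, had 78.1 ± 5.71 CPM in resistant and 182 ± 6.49 CPM in control libraries. Its log2 fold change of -1.22 ± 0.10 (adjusted p = 6.47e-07) became 0.04 after GC adjustment (adjusted p = 0.689). XXYLT1, which extends O-glucose with xylose, likewise had -1.21 before (adjusted p = 1.24e-06) and -0.0014 after (adjusted p = 0.990). KDELC2, an O-glucosyltransferase now named POGLUT3, rose to 24.2 ± 2.57 CPM in resistant libraries, against 4.36 ± 1.02 CPM in control libraries (log2 fold change 2.47, adjusted p = 2.89e-07; 1.30 after GC adjustment).

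Of 12 tested genes of receptor cleavage, 8 fell and 3 rose, beside 36.9% and 39.3% of all genes. After GC adjustment 6 of the 12 were lower and 3 higher, beside 32.6% and 34.2%. The gamma-secretase subunits APH1A and PSENEN fell, to 45.1 ± 3.58 and 8.55 ± 1.12 CPM in resistant libraries, against 155 ± 11.9 and 21.5 ± 2.28 CPM in control libraries. Their log2 fold changes were -1.78 and -1.33 (adjusted p = 1.24e-07 and 4.49e-06), and -0.81 and -0.50 after GC adjustment. TSPAN15, a tetraspanin that binds ADAM10, had 11 counts in resistant and 263 in control libraries, a log2 fold change of -4.49 ± 0.46 (adjusted p = 2.80e-06; -3.36 after GC adjustment). ADAM17, a metalloprotease that can cut Notch receptors, rose to 99.9 ± 19.7 CPM in resistant libraries, against 33.5 ± 2.86 CPM in control libraries (log2 fold change 1.57, adjusted p = 1.53e-06; 0.67 after GC adjustment).

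Trafficking and turnover genes gave 10 higher and 10 lower of 21 tested, beside 39.3% and 36.9% of all genes. They gave 11 higher and 5 lower after GC adjustment, beside 34.2% and 32.6%. NEURL1B, a ubiquitin ligase that acts on Notch ligands, fell to 1.77 ± 0.598 CPM in resistant libraries, against 41.9 ± 1.28 CPM in control libraries. Its log2 fold change was -4.56 ± 0.20 (adjusted p = 1.57e-08), and -2.96 after GC adjustment (adjusted p = 1.54e-08). DNM2, the dynamin that pinches off endocytic vesicles, and ATXN1L, a chromatin protein that binds RBPJ, had log2 fold changes of -1.63 and -1.31 (adjusted p = 7.79e-08 and 5.18e-07), and of -0.39 and -1.23 after GC adjustment. NEDD4, a ubiquitin ligase of membrane proteins, rose to 193 ± 27.0 CPM in resistant libraries, against 41.8 ± 6.68 CPM in control libraries (log2 fold change 2.20, adjusted p = 1.61e-07; 0.85 after GC adjustment).

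Among 8 tested coactivators, 2 rose and 3 fell, where 39.3% of all genes rose and 36.9% fell. After GC adjustment 4 were higher and 3 lower, where 34.2% and 32.6% of all genes were. MAML2, a Mastermind protein that joins Notch and RBPJ on DNA, rose to 38.7 ± 5.55 CPM in resistant libraries, against 16.3 ± 1.74 CPM in control libraries (log2 fold change 1.25, adjusted p = 5.06e-06; 0.94 after GC adjustment). MAML1, more abundant in both lines, had 59.8 ± 4.38 CPM in resistant and 87.6 ± 3.47 CPM in control libraries. It turned from -0.55 (adjusted p = 4.13e-04) to 0.17 after GC adjustment (adjusted p = 0.0458). MAML3, under 1 CPM in both lines, did not pass before GC adjustment (0.91, adjusted p = 0.103) but did after it (1.16, adjusted p = 0.0475). SNW1, which binds RBPJ and also acts in splicing, rose by 0.89 on the log2 scale (adjusted p = 8.69e-05; 0.58 after). The acetyltransferases KAT2A and CREBBP had log2 fold changes of -1.74 and -0.92 (adjusted p = 2.03e-06 and 5.35e-06), and of -0.58 and -0.24 after GC adjustment.

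Corepressors gave 7 higher and 7 lower of 17 tested, near the 39.3% and 36.9% of all genes. After GC adjustment they gave 12 higher and 4 lower, beside 34.2% and 32.6%. NCOR1, a scaffold of histone deacetylase complexes, rose to 266 ± 9.91 CPM in resistant libraries, against 131 ± 6.85 CPM in control libraries (log2 fold change 1.03, adjusted p = 1.43e-06; 0.44 after GC adjustment). KDM5A, a histone demethylase that RBPJ can recruit, rose by 1.55 on the log2 scale (adjusted p = 5.46e-07; 0.52 after). TLE1, a Groucho protein that works with HES repressors, fell to 43.7 ± 3.48 CPM in resistant libraries, against 138 ± 5.49 CPM in control libraries (log2 fold change -1.66, adjusted p = 1.41e-07; -1.15 after GC adjustment). CTBP1, a corepressor that senses NADH, turned from -1.18 (adjusted p = 1.72e-06) to 0.12 after GC adjustment (adjusted p = 0.105).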

How the data were processed

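Total RNA was sequenced on the Illumina platform in both lines. The authors deposited raw counts, one row per gene symbol and a column for each of 6 libraries. HISAT2 2.0.4 was among the tools, per the submitters' processing notes. Which counter, strand option, build and annotation were used is not stated there. Reads of antisense or overlapping genes may therefore be counted together. Within a line, chi-square per degree of freedom between pairs of libraries was 8.94 to 62.9, highest for both pairs with resistant replicate 1, so no library was a copy of another.

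Genes were kept by filterByExpr (16642 of 54261), libraries scaled by TMM (factors 1.12 to 1.14 in resistant and 0.867 to 0.913 in control libraries) and lines compared with edgeR 4.0.16 (R 4.3.3) without covariates. Standard errors were derived from the fold change and the square root of its F statistic. Chromosomes, GC content and length come from GENCODE (v29) basic transcripts (85.7% of tested genes matched). The adjustment fitted splines on GC content (6 df) and log2 length (5 df) to each library's deviation from the gene mean and used the fit as an offset, which also removes any biological difference that follows GC content. Tests were checked on simulated counts in which few genes changed. That check does not cover data in which most genes are called, as here. Genes outside the 10 were named as the up to 4 with the smallest p in each list. MIB1, MIB2, MAML1 and MAML3 were added beside named genes of the same role. The 10 genes, the lists and the alternatives were chosen with earlier results of these data known. Alternatives were other scalings, DESeq2 1.42.0, other filters, a replicate block and leaving out libraries. A marker of the immune list is not reported here. Counting error is all that the intervals and floors cover.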

Additional observations from a re-analysis of the deposited data

How the results depend on the processing

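Settings tried were 3 other scalings, DESeq2, 2 other filters, GC adjustments, a replicate block, and leaving out each library in turn. Across them the Notch genes called lower numbered 2 to 4, where 3 were reported, and those called higher 1 to 3, where 1 was reported. The number called higher was 3 with library size alone, and 2 with upper-quartile factors, with at least 1 CPM in 3 libraries, with GC content and length adjusted, with GC content alone, and with the replicate block and that adjustment together. JAG1 was among those added. Library size alone gave 35 other pathway genes higher and 31 lower, where 28 and 38 were reported. The pathway genes called lower numbered 23 with GC content and length adjusted, 22 with GC content alone and 23 with the replicate block added, where 38 were reported. Leaving out 1 library gave 1 Notch gene higher, 3 to 4 lower, 24 to 27 other genes higher and 37 to 40 lower, and 12132 to 13199 genes called in all. Library size alone raised the share of higher genes among all called from 51.6% to 62.4%.

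Directions turned as follows. NOTCH3 was 0.79 with GC and length adjusted, 1.02 with GC alone, 0.41 with GC and length adjusted but without resistant replicate 1, and 0.92 with GC and length adjusted and the block, none past the threshold. In the same 4 settings HES6 was 0.65, 0.67, 0.77 and 0.67, all past it, and CTBP1 was 0.12, 0.062, 0.10 and 0.12, none past it. LFNG was 0.036, 0.040 and 0.038 in those with length adjusted, none past it, XXYLT1 was 0.028 with GC and length adjusted without resistant replicate 1, and DLK1 ranged from -0.14 to 0.94 with 1 library left out, negative without control replicate 1. NOTCH3 gave no value with at least 1 CPM in 3 libraries or without control replicate 3, where it was filtered out. The causes were not tested.

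Replicate numbers did not pair the libraries: deviations of same-numbered libraries correlated at -0.35, -0.0598 and -0.208, and no library correlated best with its own number. A replicate block gave 12097 genes called instead of 12683, 1 Notch gene higher and 3 lower as reported, and 27 other pathway genes higher and 37 lower. With the adjustment added, JAG2 no longer passed under the block (-0.83, adjusted p = 0.0853). Depth limits NOTCH3, NOTCH4, DLL1 and JAG2, which had under 100 counts in every library.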
